A study of Mus musculus with 8 samples.

Results

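The genes described here are 35 members of the unfolded protein response and of the ATF4 branch of the integrated stress response, chosen by name: a spot on the array counted when its gene name was one of the 35. They comprise 7 stress sensors and transcription factors, 14 chaperones and folding enzymes of the endoplasmic reticulum (ER), 4 genes of ER-associated degradation, 5 ATF4 targets of amino acid supply and 5 other ATF4 stress targets. Of these, 34 had a probe that could be tested, among 18073 genes tested in all. The exception was Vldlr.

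RNA was measured in B16 cells, a mouse melanoma line, on 8 one-colour Agilent arrays, with 2 biological replicates in each of 4 groups. Control cells, labelled 0 h, were untreated. The semaphorin SEMA3E, a secreted ligand of plexin D1, was given for 2 h in one group and 8 h in another, and the fourth group received cytochalasin D, which blocks actin filament growth, for 8 h. All cells were grown in high-glucose medium with serum. Doses are not given in the sources used here. The control is labelled 0 h, so treatment and time in culture cannot be told apart in the comparisons of an 8 h group with control. Each sample is the RNA of a whole culture, so fewer cells of a type and less RNA per cell cannot be told apart.

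When unfolded proteins build up in the ER, the sensors IRE1, PERK and ATF6 signal to the nucleus. IRE1 splices the Xbp1 transcript, ATF6 is cut to release a transcription factor, and both raise chaperones and degradation genes. PERK phosphorylates eIF2 alpha, which lowers protein synthesis in general but raises translation of ATF4. ATF4 is also reached from other eIF2 alpha kinases, which sense amino acid shortage, haem shortage or double-stranded RNA, and it drives genes of amino acid supply together with stress genes such as Ddit3 and Trib3. Splicing of Xbp1 and translation of Atf4 are not read by the transcript levels given here.

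Both branches leave marks in promoters, and the following stretches are shown because their genes carry the patterns below. They come from the RefSeq promoter table for GRCm38.p6, which spans 250 bases before to 50 after a gene's start and held 32 of the 35 members. The motifs were searched on both strands. The first set holds the ER stress response element, CCAAT, any 9 bases, then CCACG, with the match in capitals:
Hspa5, chr2:34772013-34772055, plus strand: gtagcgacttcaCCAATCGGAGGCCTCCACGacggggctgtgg
Dnajc3, chr14:118937815-118937857, plus strand: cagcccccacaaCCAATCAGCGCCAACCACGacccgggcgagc
Canx, chr11:50325788-50325830, minus strand: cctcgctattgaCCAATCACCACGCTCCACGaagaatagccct
Creld2, chr15:88819508-88819550, plus strand: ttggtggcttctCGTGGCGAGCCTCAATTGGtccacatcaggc

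The second set holds the C/EBP-ATF composite element TGATGNAA, which ATF4 binds together with C/EBP proteins, again in capitals on either strand:
Chac1, chr2:119351037-119351068, plus strand: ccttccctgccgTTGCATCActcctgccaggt
Nupr1, chr7:126625561-126625592, minus strand: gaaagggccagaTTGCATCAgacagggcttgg
Slc7a11, chr3:50443641-50443691, minus strand: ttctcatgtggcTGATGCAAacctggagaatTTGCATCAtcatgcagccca
Asns, chr6:7693213-7693244, minus strand: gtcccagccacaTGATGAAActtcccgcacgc

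The ER stress response element was found in 8 of the 32 members (25%), against 0.119% of all 32851 promoters in the table. Of 12 chaperone genes with a promoter, 7 held it, as did the degradation gene Syvn1, and none of the 5 amino acid genes or 5 ATF4 stress genes did. The composite element was found in 7 members (21.9%), against 3.97% of all promoters. Those were Asns and Slc7a11 among the amino acid genes, Chac1, Trib3 and Vldlr among the stress genes, Herpud1 and Nupr1, and none of the 12 chaperone genes. The core TGACGTGG of XBP1 and ATF6 sites was found in 0 members and in 0.676% of all promoters. Members are counted here as genes and the table as single promoters. Counted as genes, 19 tested genes in the table held the ER stress response element and 10201 did not. The composite element was held by 273 and not by 9947. A match describes letters and is not a measured binding site.

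Levels are log2 of the processed signal minus the array's 75th percentile over probes well above background on all 8 arrays, so 0 is that percentile and a difference of 1 is a factor of 2. Differences between groups were tested with limma over all genes, with 2 arrays in a group, and called at a Benjamini-Hochberg adjusted p under 0.05. The arrays were not equal in quality: over all spots the 75th percentile came to 59.3 and 61.1 intensity units on the SEMA3E 2 h arrays, 66.8 on cytochalasin D replicate 2 and 111 to 154 on the others. SEMA3E 2 h replicate 2 had 214 spots marked as outliers against 6 to 24 elsewhere, and the negative control signal was 41.6 on SEMA3E 8 h replicate 2 against 17.9 to 22.2. All 7 melanocyte markers were above background on all 8 arrays. Of the fibroblast markers 2 of 6 were (Col1a1, Col1a2), with Col3a1, Lum and Pdgfra above it on none, and of the leukocyte markers 2 of 5 (Cd3e, Cd68), with Lyz2 on none. Of the 3 keratinocyte markers none was above background on all 8 arrays.

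No member passed the test in any of the 5 comparisons. What the arrays showed instead was a group of ATF4 stress genes that was high on 1 SEMA3E 8 h array, in part high on 1 SEMA3E 2 h array, and lower on most others, while of the 14 chaperone genes 5 were low on that same 2 h array, among them the dim Hyou1, which was lower still on a control array. Called genes were 0 of the 34 members beside 0% of all genes in SEMA3E 2 h against control, 0 beside 0.00553% in SEMA3E 8 h against control, 0 beside 0% in cytochalasin D against control, 0 beside 0.00553% in cytochalasin D against SEMA3E 8 h, and 0 beside 0% in SEMA3E 8 h against 2 h. The smallest adjusted p of a member (limma) was 0.489, 0.749, 1.0, 0.418 and 0.409 in that order. The F test over the 4 groups called 0 members and 0% of all genes. At an unadjusted p under 0.05 the members counted 1 beside 9.47% of all genes, 3 beside 6.14%, 0 beside 2.44%, 6 beside 11% and 2 beside 11.6%.

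**Figure D1:**
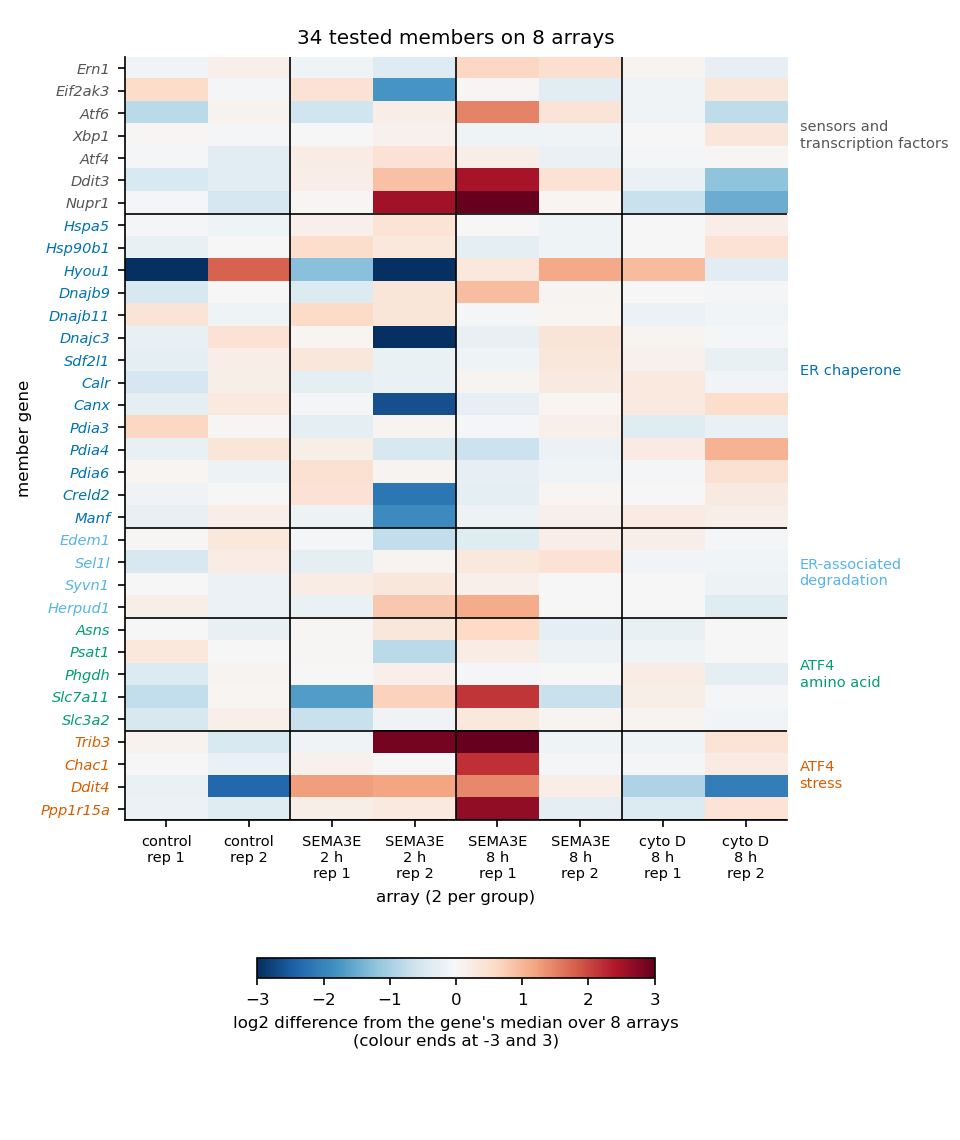
Each tested member (rows, coloured by list) on each of the 8 arrays (columns, 2 per group), as the log2 difference from the gene's own median over the 8 arrays. The reddest cells of the ATF4 stress genes, Ddit3, Nupr1, Atf6, Herpud1 and Slc7a11 lie on SEMA3E 8 h replicate 1. Ddit3, Nupr1, Trib3 and Ddit4 also have red cells on SEMA3E 2 h replicate 2, and Ddit4 on SEMA3E 2 h replicate 1. The bluest cells of Dnajc3, Canx, Creld2, Manf and Eif2ak3 lie on SEMA3E 2 h replicate 2.

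Trib3, a pseudokinase that restrains AKT and ATF4 signalling, showed the pattern most plainly. Its unscaled signal was 1739 and 983 intensity units in control, 647 and 4944 after SEMA3E for 2 h, 23049 and 1196 after SEMA3E for 8 h, and 1089 and 1098 after cytochalasin D. Its levels on the log2 scale were -0.67 and -1.23 in control, -0.89 and 2.08 at 2 h, 3.08 and -0.91 at 8 h, and -0.91 and -0.36 after cytochalasin D. One array of each SEMA3E group stood above all others and its partner lay among the controls. The difference from control was 1.55 ± 1.33 (SE) at 2 h and 2.03 ± 1.33 at 8 h. Without SEMA3E 8 h replicate 1 the latter was 0.04, and without SEMA3E 2 h replicate 2 the former was 0.05.

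Chac1, which degrades glutathione, was high on a single array. Its levels were -2.10 and -2.27 in control, -1.96 and -2.06 at 2 h, 0.12 and -2.12 at 8 h of SEMA3E, and -2.13 and -1.84 after cytochalasin D. The other 7 arrays lay within 0.43 log2 units of each other. The difference of SEMA3E 8 h from control, 1.18 ± 0.63 (SE), was 0.07 without SEMA3E 8 h replicate 1.

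Ppp1r15a encodes GADD34, the phosphatase subunit that restores protein synthesis by acting on eIF2 alpha. Its levels were -0.32 and -0.50 in control, 0.04 and 0.14 at 2 h, 2.52 and -0.41 at 8 h of SEMA3E, and -0.56 and 0.27 after cytochalasin D. Again only SEMA3E 8 h replicate 1 stood apart, and the difference from control at 8 h, 1.47 ± 0.83 (SE), was -0.0026 without it. Both 2 h arrays lay above both controls, by a difference of 0.50 ± 0.83 (SE) that is smaller than its error.

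Ddit4, which encodes REDD1, an inhibitor of mTORC1, was the stress gene whose replicates agreed best after SEMA3E. Its levels were -0.61 and -0.69 at 2 h and -0.43 and -1.67 at 8 h of SEMA3E, against -2.07 and -4.21 in control and -2.79 and -3.94 after cytochalasin D. All 4 SEMA3E arrays lay above all 4 others. The difference from control was 2.49 ± 0.75 (SE) at 2 h (limma, adjusted p = 0.489) and 2.09 ± 0.75 at 8 h (adjusted p = 0.761), and that of cytochalasin D from SEMA3E 8 h was -2.32 ± 0.75 (adjusted p = 0.429). The controls themselves lay 2.15 apart, and without control replicate 2 the differences were 1.42 at 2 h and 1.02 at 8 h.

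Of the fifth stress target, Vldlr, a lipoprotein receptor, no probe was well above background on both arrays of a group. Its better probe was above background only on SEMA3E 8 h replicate 2, at a level of -6.67.

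**Figure D2:**
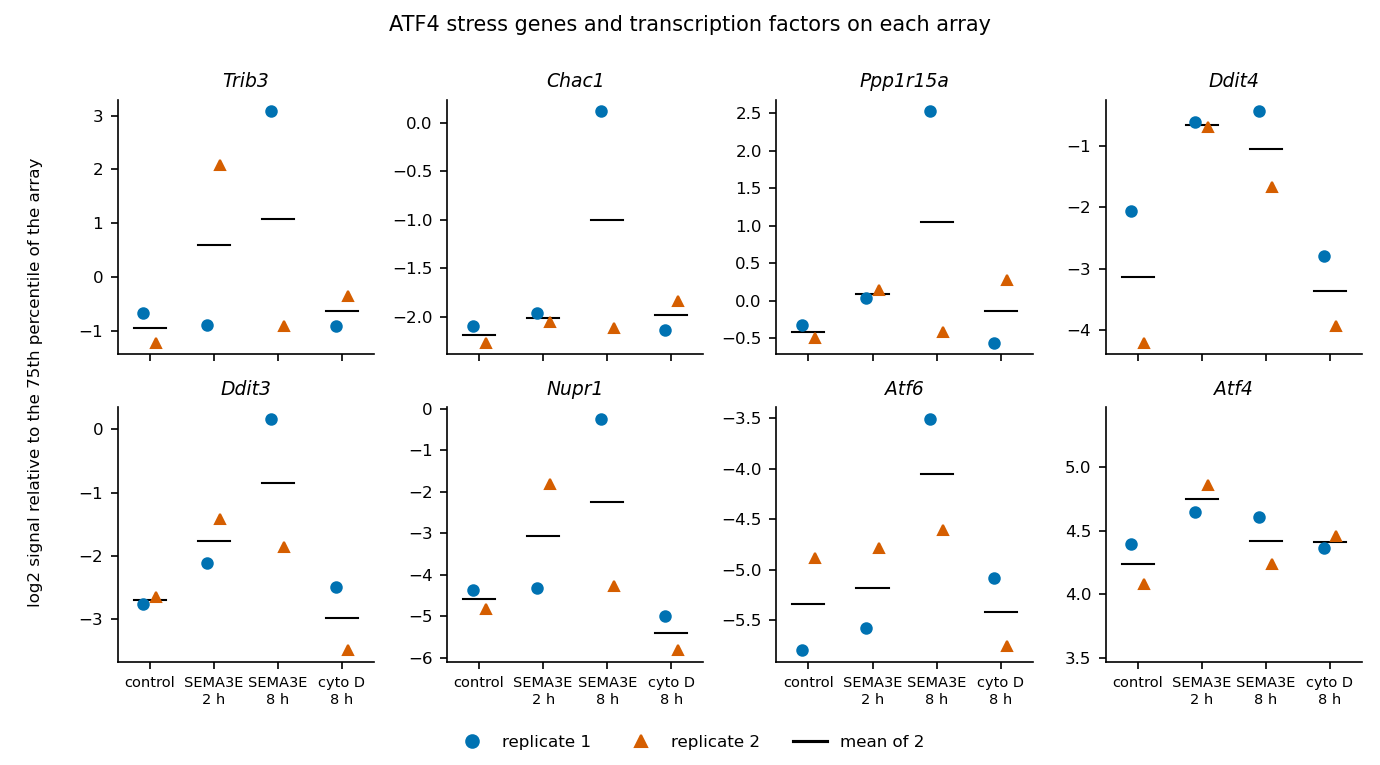
Levels on each array (log2 relative to the array's 75th percentile; the vertical scale differs between panels) of the 4 tested ATF4 stress genes and of Ddit3, Nupr1, Atf6 and Atf4, with circles for replicate 1, triangles for replicate 2 and bars for the mean of 2. SEMA3E 8 h replicate 1 is the highest array for 7 of the 8 genes, the exception being Atf4 by the probe shown. For Ddit4, Ddit3 and Nupr1 all 4 SEMA3E arrays lie above the other 4.

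Among the transcription factors, Ddit3 and Nupr1 followed the stress genes, and Atf4 did not by the probe used here. Ddit3 encodes CHOP, a factor of prolonged ER stress. Its levels were -2.76 and -2.65 in control, -2.11 and -1.42 at 2 h, 0.17 and -1.86 at 8 h of SEMA3E, and -2.49 and -3.50 after cytochalasin D. All 4 SEMA3E arrays lay above the rest, with replicate 1 at 8 h far above. The difference from control at 8 h was 1.86 ± 0.66 (SE; limma, adjusted p = 0.749), and 0.85 without that array. Cytochalasin D lay below SEMA3E 8 h, with a difference of -2.15 ± 0.66 (adjusted p = 0.418), or -1.14 without SEMA3E 8 h replicate 1.

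Nupr1, a small stress-induced regulator of transcription, had levels of -4.36 and -4.84 in control, -4.31 and -1.82 at 2 h, -0.25 and -4.28 at 8 h of SEMA3E, and -5.01 and -5.82 after cytochalasin D. The high arrays were the same as for Trib3, SEMA3E 2 h replicate 2 and SEMA3E 8 h replicate 1. The difference from control at 8 h was 2.34 ± 1.28 (SE; limma, adjusted p = 0.853), and 0.32 without SEMA3E 8 h replicate 1. Ddit3, Nupr1 and Ddit4 were the 3 of 34 members with all SEMA3E arrays above all others, beside 5.62% of all genes, and 0 members had them all below, beside 2.21%. This split of the arrays was chosen after the values were seen.

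By the probe used here Atf4 varied little. Its levels were 4.40 and 4.08 in control, 4.64 and 4.86 at 2 h, 4.60 and 4.24 at 8 h of SEMA3E, and 4.36 and 4.46 after cytochalasin D. The 2 h arrays lay above all others, but the difference from control, 0.51 ± 0.27 (SE; limma, adjusted p = 0.548), did not pass, and with scaling by the median of all probes it was -0.080 beside -0.53 for the median of all genes. A second tested probe of Atf4 gave differences of -0.50, 0.69 and -0.85 for SEMA3E 2 h, SEMA3E 8 h and cytochalasin D against control, where the probe used here gave 0.51, 0.18 and 0.17. That second probe was highest on SEMA3E 8 h replicate 1, at -1.93, and ran from -4.47 to -2.71 on the other arrays.

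Of the sensor genes, Atf6 and Ern1 were highest on the SEMA3E 8 h arrays by the probes used. Atf6, the cleaved sensor, had levels of -5.79 and -4.88 in control, -5.58 and -4.78 at 2 h, -3.51 and -4.61 at 8 h of SEMA3E, and -5.08 and -5.75 after cytochalasin D. Both SEMA3E 8 h arrays were above all 6 others, with a difference from control of 1.28 ± 0.51 (SE; limma, adjusted p = 0.788), or 0.73 without replicate 1. Cytochalasin D differed from SEMA3E 8 h by -1.36 ± 0.51 (adjusted p = 0.446), or -0.81 without that replicate. Ern1, which encodes IRE1 alpha, had levels of -5.69 and -5.48 in control, -5.74 and -6.00 at 2 h, -5.00 and -5.14 at 8 h of SEMA3E, and -5.54 and -5.87 after cytochalasin D. Here too the 8 h SEMA3E arrays were the highest, and they were close to each other. They lay 0.51 ± 0.26 above control (adjusted p = 0.845), and 0.80 ± 0.26 above SEMA3E 2 h (adjusted p = 0.409), and cytochalasin D differed from them by -0.63 ± 0.26 (adjusted p = 0.450). A second tested probe of Ern1, above background on 7 arrays, read -6.22 and -6.86 at SEMA3E 8 h and -7.03 to -6.46 on the other arrays. By that probe SEMA3E 8 h lay 0.21 above 2 h. Both genes had dim probes, far below the 75th percentile. The share of all genes with both arrays of a group above all 6 others was not counted, here or for Atf4. Without the filter on dim probes, 78.1% of 34852 genes lay above 0 in SEMA3E 8 h against control, with a median of 0.53. On SEMA3E 8 h replicate 2, 9.8% of all genes lay 1 log2 unit or more above the median of the other arrays. The difference of Ern1 between 8 h and 2 h turned to -0.35 with normexp background correction. That between the 8 h treatments was 0.35 with scaling by the median of all probes, beside 0.85 for the median of all genes.

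Xbp1 was the most even of the transcription factors. Its levels were 2.57 and 2.49 in control, 2.51 and 2.67 at 2 h, 2.41 and 2.43 at 8 h of SEMA3E, and 2.56 and 2.88 after cytochalasin D. Its differences from control were 0.06, -0.11 and 0.19, each with an SE of 0.25. Eif2ak3, which encodes PERK, lay between -1.54 and -2.44 on 7 arrays and at -3.85 on SEMA3E 2 h replicate 2.

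Hspa5 encodes BiP, the ER Hsp70 chaperone whose induction is the usual sign of the unfolded protein response. Its levels were 3.07 and 2.96 in control, 3.26 and 3.50 at 2 h, 3.11 and 2.96 at 8 h of SEMA3E, and 3.08 and 3.30 after cytochalasin D. Both 2 h arrays lay above both controls by a mean of 0.37 ± 0.25 (SE; limma, adjusted p = 0.616), with 0.06 for the median of all genes. Scaling by the median of all probes lowered both alike, to -0.22 and -0.53. At 8 h the difference from control was 0.03 ± 0.25 for SEMA3E and 0.18 ± 0.25 for cytochalasin D.

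Hsp90b1, the ER member of the Hsp90 family, had levels of 3.22 and 3.44 in control, 3.96 and 3.76 at 2 h, 3.15 and 3.30 at 8 h of SEMA3E, and 3.43 and 3.88 after cytochalasin D. It lay 0.64 ± 0.27 (SE) lower at 8 h than at 2 h of SEMA3E (limma, adjusted p = 0.427). Among the chaperone genes Pdia4, a disulfide isomerase, had the largest difference between the 8 h treatments. Its levels were -1.28 and -0.81 after SEMA3E and -0.39 and 0.42 after cytochalasin D. Control lay at -0.87 and -0.28 and SEMA3E 2 h at -0.46 and -1.11, and the difference between the 8 h treatments was 1.06 ± 0.40 (adjusted p = 0.446).

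A separate set of chaperone genes was low on SEMA3E 2 h replicate 2 alone. Canx, the lectin chaperone calnexin, had levels of 3.06 and 3.65 in control, 3.29 and 0.72 at 2 h, 3.10 and 3.42 at 8 h of SEMA3E, and 3.65 and 3.87 after cytochalasin D. Dnajc3, a co-chaperone of BiP that also inhibits PERK, had levels of -1.97 and -1.32 in control, -1.70 and -5.00 at 2 h, -1.97 and -1.38 at 8 h of SEMA3E, and -1.68 and -1.81 after cytochalasin D. In both genes 7 arrays lay together and 1 lay more than 2 log2 units below them. Manf, a secreted ER stress protein, had levels of 1.62 and 2.05 in control, 1.69 and -0.07 at 2 h, 1.68 and 1.99 at 8 h of SEMA3E, and 2.09 and 2.01 after cytochalasin D. Creld2, another ER stress-induced folding factor, fell outside the naming rule and is added for the same shape: 1.40 on that array and 3.29 to 3.99 on the other 7.

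The differences from control at 2 h were -1.35 for Canx, -1.70 for Dnajc3, -1.03 for Manf and -0.82 for Creld2, and none passed. For Canx, Dnajc3 and Manf they were -0.08, -0.07 and -0.15 without SEMA3E 2 h replicate 2. Without replicate 1 the differences were -2.64 for Canx, -3.36 for Dnajc3, -1.91 for Manf and -2.12 for Creld2. They then rest on 1 array of the group, which that fit assumes to vary like the other groups. Hyou1, an ER chaperone related to Hsp70, was above background on 5 arrays and ran from -10.20 to -4.59, the extremes being the 2 controls. Its levels were -7.63 and -9.54 at 2 h, -6.06 and -5.23 at 8 h of SEMA3E and -5.41 and -6.67 after cytochalasin D, and the groups overlapped with control.

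**Figure D3:**
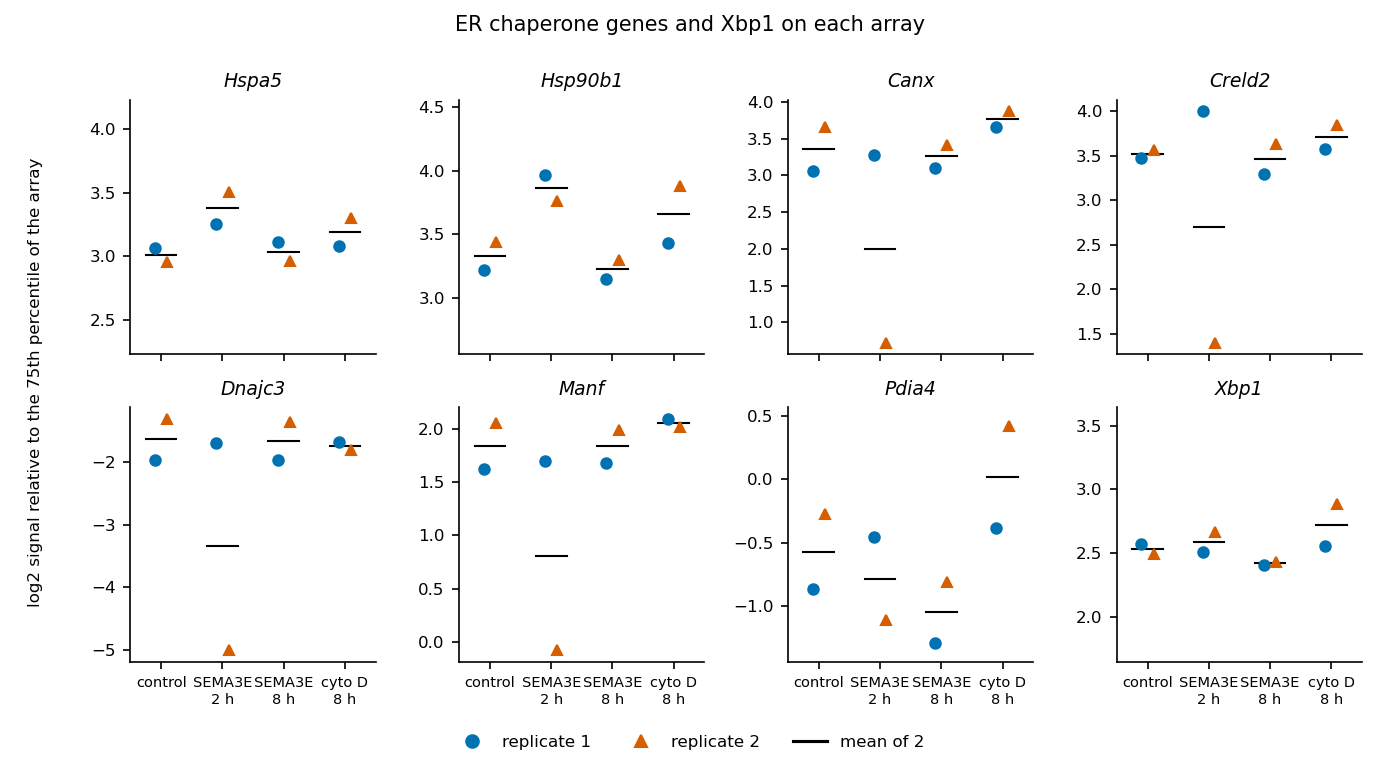
Levels on each array (log2 relative to the array's 75th percentile; the vertical scale differs between panels) of 7 ER chaperone genes and Xbp1, with circles for replicate 1, triangles for replicate 2 and bars for the mean of 2. Hspa5, Hsp90b1 and Xbp1 span less than 1 log2 unit, whereas Canx, Creld2, Dnajc3 and Manf have 1 low point, SEMA3E 2 h replicate 2.

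The other chaperone genes were Dnajb9, Dnajb11, Sdf2l1, Calr, Pdia3 and Pdia6, which had differences from control between -0.61 and 0.73. A second tested probe of Dnajb11, detected on 6 arrays, gave -1.09 at SEMA3E 2 h where the one used gave 0.35. In the 7 members with several tested probes, the probes had the same sign in 13 of 35 gene and comparison pairs. Of the degradation genes, Edem1, Sel1l and Syvn1 differed from control by -0.55 to 0.51. Herpud1, which helps to assemble the degradation complex, lay at 0.65 on SEMA3E 8 h replicate 1 and 0.33 on SEMA3E 2 h replicate 2, whereas the remaining 6 arrays ran from -0.82 to -0.29. Its promoter was the one among the degradation genes that held the composite element.

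The ATF4 genes of amino acid supply did not follow the stress genes as a list, though Slc7a11 did. Asns, which makes asparagine, had levels of 1.02 and 0.81 in control, 1.06 and 1.35 at 2 h, 1.62 and 0.73 at 8 h of SEMA3E, and 0.81 and 1.03 after cytochalasin D. SEMA3E 8 h replicate 1 was its highest array, 0.27 above the next. Its differences from control were 0.29, 0.26 and 0.00, each with an SE of 0.35. The 8 h SEMA3E difference was -0.19 without SEMA3E 8 h replicate 1 and 0.72 without replicate 2. Phgdh and Psat1, enzymes of serine synthesis, and Slc3a2, the heavy chain of amino acid transporters, differed from control by -0.54 to 0.36.

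Slc7a11, the light chain of the cystine transporter, had levels of -7.09 and -6.29 in control, -8.02 and -5.66 at 2 h, -4.20 and -7.01 at 8 h of SEMA3E, and -6.17 and -6.41 after cytochalasin D. It was dim, being above background on 6 arrays, and again highest on SEMA3E 8 h replicate 1. The difference from control at 8 h was 1.08 ± 1.0 (SE) and turned to -0.32 without that array.

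The chaperone and amino acid lists were set side by side as the median difference of each. In SEMA3E 2 h against control the medians were -0.14 for the 14 chaperone genes and -0.15 for the 5 amino acid genes, with 0.06 for all genes tested. In SEMA3E 8 h against control they were -0.04 and 0.26, with 0.12 for all genes. In cytochalasin D against control they were 0.21 and 0.13, with 0.03 for all genes. The gap between the lists was thus 0.30 at SEMA3E 8 h and -0.01 and -0.09 in the other comparisons with control, next to a replicate SD of the gap of 0.35. With the GC trend removed the amino acid median at 8 h was -0.0060 and the gap 0.086. Without SEMA3E 8 h replicate 1 the gap at 8 h was -0.28, and without replicate 2 it was 0.67.

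The 4 tested stress genes had larger medians, 1.02 at 2 h and 1.75 at 8 h of SEMA3E and 0.23 after cytochalasin D against control. Without SEMA3E 8 h replicate 1 the 8 h median was 0.050, with 0.26 for all genes, and without SEMA3E 2 h replicate 2 the 2 h median was 0.32. With the amino acid and stress genes taken as 1 list of 9, and the chaperones joined by the degradation genes, the gap at SEMA3E 8 h was 1.1. Without SEMA3E 8 h replicate 1 those lists had medians of 0.035 and 0.073. Relative to SEMA3E 8 h, cytochalasin D was lower in all 9 ATF4 targets and in 10 of 18 chaperone and degradation genes, beside 10899 of the 18073 genes tested. That count was 3 of the 9 without SEMA3E 8 h replicate 1. It was 6 of 9 when scaled by the 75th percentile of all probes and 4 of 9 when scaled by their median, which moved the median of all genes from -0.13 to 0.12 and 0.85. Below the median of all genes lay 7 of the 9. That count cannot differ between these 3 scalings, since each shifts all genes of a comparison alike. These comparisons share the SEMA3E 8 h or control arrays.

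**Figure D4:**
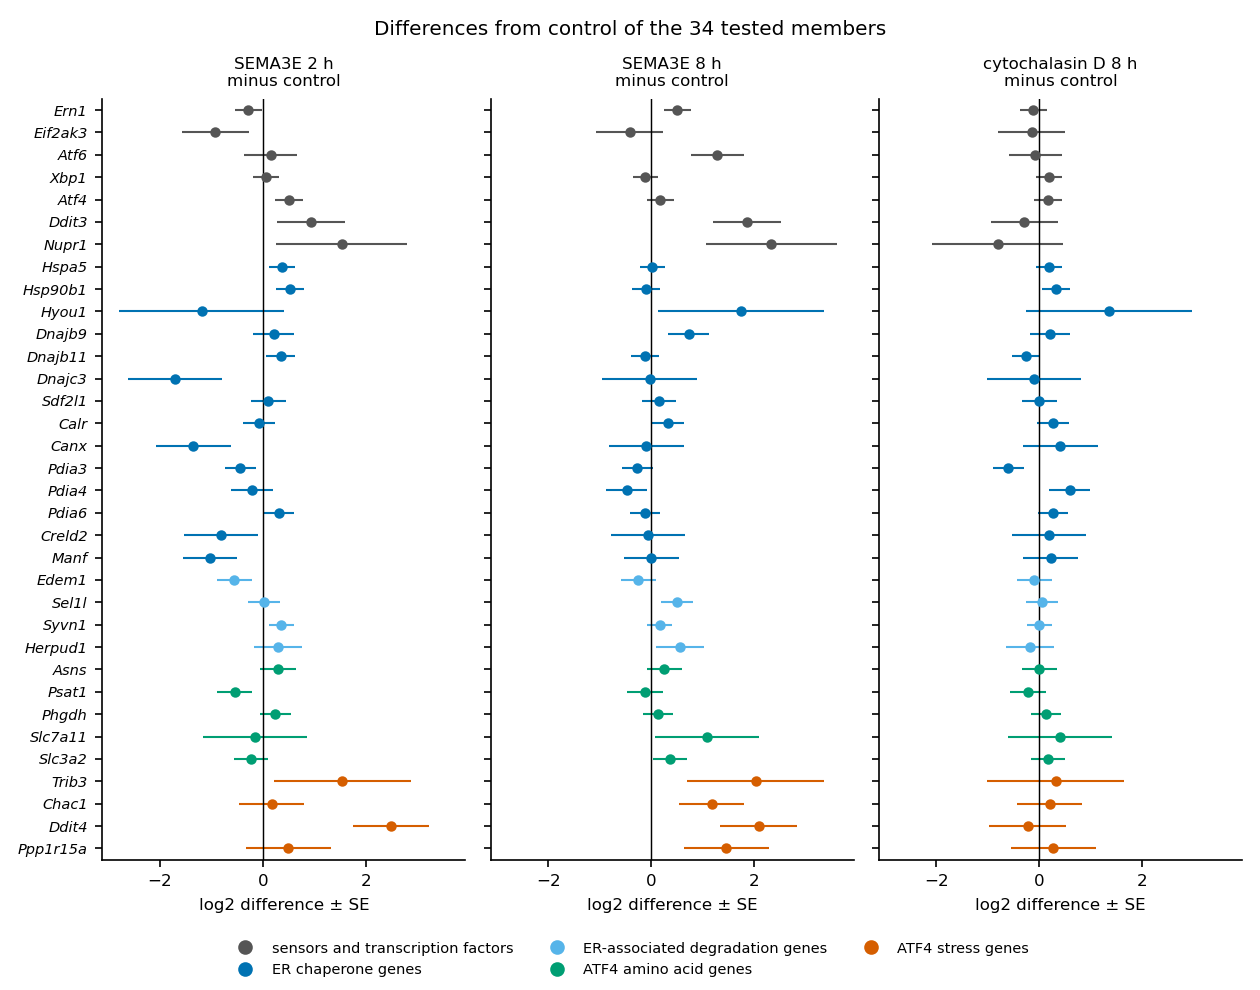
Log2 difference from control ± limma's SE (horizontal) for each of the 34 tested members (vertical, coloured by list) in the 3 treated groups, 2 arrays in a group. The 4 ATF4 stress genes, Ddit3 and Nupr1 lie right of 0 at SEMA3E 8 h with wide bars, and after cytochalasin D most members lie near 0.

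Counted over arrays, 9 of 34 members (26.5%) lay 1 log2 unit or more above the median of the other 7 arrays on SEMA3E 8 h replicate 1, beside 3.49% of all genes tested, and 0 lay as far below. They were the 4 stress genes, Ddit3, Nupr1, Atf6, Herpud1 and Slc7a11. On its partner, SEMA3E 8 h replicate 2, the count was 1 of 34 (Hyou1), beside 9.8% of all genes. On SEMA3E 2 h replicate 2, 4 members lay that far above (11.8%, beside 5.8%) and 6 that far below (17.6%, beside 9.36%). The high ones were Ddit3, Nupr1, Trib3 and Ddit4, and the low ones Eif2ak3, Hyou1, Dnajc3, Canx, Creld2 and Manf.

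Replicates differed by more than 1 log2 unit in 2 of 34 members in control, 9 at SEMA3E 2 h, 9 at SEMA3E 8 h and 3 after cytochalasin D. As shares these were 5.88%, 26.5%, 26.5% and 8.82%, beside 14.3%, 14.1%, 9.67% and 8.75% of all genes. These are counts without a test. SEMA3E 2 h replicate 2, which carried the low chaperone genes, had the most outlier spots, 214. Keeping outlier spots turned the sign of 0 of 57 gene and comparison pairs. Its low 75th percentile, 61.1, was shared with replicate 1, at 59.3. On replicate 1 only Hyou1 of the chaperone genes lay 1 log2 unit or more below the median of the other arrays. Beyond that, the part of these quality values in the result was not tested. SEMA3E 8 h replicate 1, which carried the high stress genes, had 20 outlier spots, a negative control signal of 19.8 and, at 154 intensity units, the highest 75th percentile of all spots. The deviation of SEMA3E 8 h replicate 1 from each gene's mean over the 8 arrays correlated with probe GC content at 0.17 over all genes. The 8 arrays ran from -0.28 to 0.31 in this correlation. With the GC trend removed the median of the 4 stress genes at SEMA3E 8 h against control was 1.71, and the part of the other values was not tested.

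**Figure D5:**
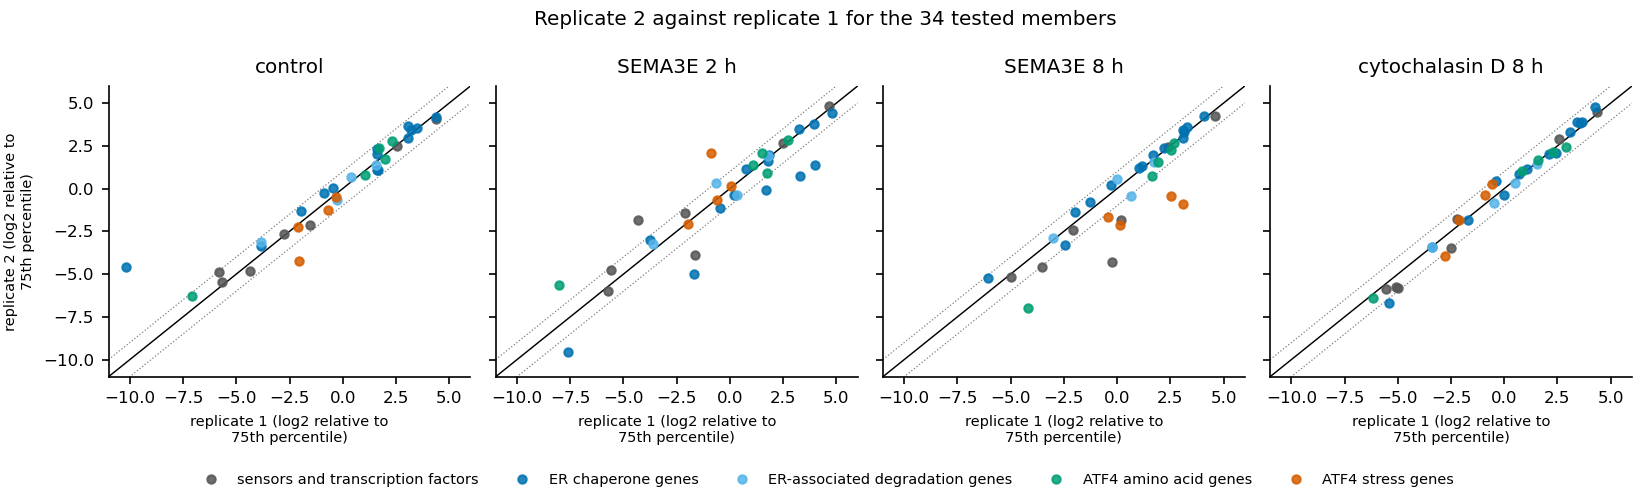
Replicate 2 against replicate 1 for the 34 tested members in each group (both axes log2 relative to the array's 75th percentile, points coloured by list), with the line of equality and dotted lines 1 log2 unit away. Points outside the dotted lines number 2 in control, 9 at SEMA3E 2 h, 9 at SEMA3E 8 h and 3 after cytochalasin D.

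The promoter matches were set beside these array patterns as a description, on arrays chosen after the values were seen. Of 6 tested members with the composite element, 5 lay 1 log2 unit or more above the other arrays on SEMA3E 8 h replicate 1 (Chac1, Herpud1, Nupr1, Slc7a11 and Trib3), and of 25 without it 3 did (Ddit3, Ddit4 and Ppp1r15a). Over all tested genes in the promoter table, members included, the shares were 20 of 273 with the element (7.33%) and 286 of 9947 without it (2.88%). On SEMA3E 8 h replicate 2 they were 10.3% and 6.94%, with none of the members. Of 8 members with the ER stress response element, 3 were low on SEMA3E 2 h replicate 2 (Canx, Creld2 and Dnajc3) while Hspa5, Hsp90b1, Calr, Pdia6 and Syvn1, which hold it too, were not. Of all 19 tested genes with that element, the 8 members included, 7 were low there (36.8%), beside 10.1% of genes without it.

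Other genes of the pathways, from lists of non-members, were read in the same way. These lists were chosen with earlier results of these data known, and the arrays after the values were seen. The counts are therefore a description and no independent support. Of 34 tested genes of the ATF4 and eIF2 alpha arm, 9 lay 1 log2 unit or more above the other arrays on SEMA3E 8 h replicate 1 (26.5%, beside 3.49% of all genes): the transcription factors Cebpb, Cebpg, Atf3 and Atf5, the stress gene Sesn2, the transporter Slc6a9, the aminotransferase Gpt2 and the secreted factors Gdf15 and Vegfa. Of 33 tested other genes of the unfolded protein response, 1 did (Edem2). On SEMA3E 8 h replicate 2 none of the 34 ATF4 arm genes did, beside 9.8% of all genes, and on SEMA3E 2 h replicate 2, 3 lay that far above and 4 that far below. None of either list passed in any comparison. In SEMA3E 8 h against control 30 of the 34 ATF4 arm genes lay above 0, with a median of 0.42. Without SEMA3E 8 h replicate 1 the count was 19 of 35, 1 gene more being tested, with a median of 0.047. In the same comparison on all arrays 18 of the 33 unfolded protein response genes lay above 0, with a median of 0.05. Of all genes tested, 11452 of 18073 lay above 0.

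Sesn2, which lowers mTORC1 activity, had the smallest p of the ATF4 arm in SEMA3E 8 h against control and in cytochalasin D against SEMA3E 8 h. Its levels were -3.96 and -3.67 in control, -3.36 and -3.38 at 2 h, -1.48 and -2.98 at 8 h of SEMA3E, and -3.73 and -4.50 after cytochalasin D, so that, as in Ddit4, all 4 SEMA3E arrays lay above the rest. With Gdf15 it was 1 of 2 genes of the 34 in which they did, a share near the 5.62% of all genes. It differed by 1.59 ± 0.50 (SE) from control at SEMA3E 8 h (limma, adjusted p = 0.710) and by -1.89 ± 0.50 between cytochalasin D and SEMA3E 8 h (adjusted p = 0.413). Gdf15 had levels of -4.82 and -5.16 in control, -3.79 and -1.41 at 2 h, -0.24 and -4.27 at 8 h of SEMA3E, and -5.35 and -5.19 after cytochalasin D. Its high arrays were those of Trib3 and Nupr1.

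Other genes with the smallest p of their list and comparison did not pass either. In the ATF4 arm, Eif2ak1, the haem-regulated eIF2 alpha kinase, lay 1.66 below control in log2 units at SEMA3E 2 h. Shmt2, of mitochondrial one-carbon metabolism, lay 1.40 higher at SEMA3E 8 h than at 2 h, and Mthfd2 of the same pathway differed by -0.55 between cytochalasin D and control. In the unfolded protein response list, Sec24d, a vesicle coat subunit, differed by -1.02 at SEMA3E 2 h and Wfs1, an ER membrane protein, by 0.48 at SEMA3E 8 h against control. Edem2, of ER-associated degradation, differed by 1.92 between SEMA3E 8 h and 2 h. Ufm1, a ubiquitin-like modifier, differed by -0.88 between cytochalasin D and control and by -1.15 between cytochalasin D and SEMA3E 8 h.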

How the data were processed

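Per the labels, total RNA from B16 cultures was amplified to Cy3-labelled cRNA and hybridised to Agilent mouse 8x60K arrays. Per the file headers, the authors ran Agilent Feature Extraction 11.5.1.1, whose processed signal is a linear intensity, background-subtracted and not scaled across arrays. The authors also deposited a table of intensity values per gene name, used as an alternative. Control spots and spots marked as outliers were left out, and spots of a probe were averaged as log2. A probe entered when it was well above background on both arrays of at least 1 group, which left 24667 of 55698 probes. Of a gene's probes the one with the highest mean was used, giving 18073 genes. From each log2 value the 75th percentile of its array was subtracted, computed from the 18687 probes that all 8 arrays detected. Every array entered 1 limma 3.58.1 fit (R 4.3.3; 4 residual and 3.40 prior degrees of freedom; two-sided; Benjamini-Hochberg adjustment over all genes), checked on simulated data. The number of arrays, 2 in a group, limits the precision; the median SE of a difference was 0.34.

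The members, lists and motifs were chosen with earlier results of these data known. The values of a member on all 8 arrays are given where it had an unadjusted p under 0.05 or a difference of 1 log2 unit or more in any comparison, and for Atf4, Ddit3, Xbp1, Hspa5 and Asns in any case; of the other pathway genes, the one with the smallest p in each list and comparison is named. Cebpb and the others listed with it, Gdf15, Creld2 and Eif2ak3 were added after their values were seen. The alternatives were 12 settings, of which the removal of a GC trend was chosen after seeing the data, and leaving out each of the 8 arrays. Protein sequences were not used here.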

Additional observations from a re-analysis of the deposited data

Results flagged for a closer look

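Nupr1 lay above both controls on both SEMA3E 8 h arrays and below both on both cytochalasin D arrays. SEMA3E 8 h replicate 2 lay close to control replicate 1, at -4.28 against -4.36. The differences from control were 2.34 and -0.81 on the log2 scale, and the former was 0.32 without SEMA3E 8 h replicate 1. The difference between the treatments, -3.15 ± 1.28 (SE), did not pass (limma, adjusted p = 0.449), and it was -1.13 without SEMA3E 8 h replicate 1.

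Vldlr was not tested, but 1 of its probes was well above background on 1 array, SEMA3E 8 h replicate 2, at a level of -6.67. That array also had the highest negative control signal, 41.6 intensity units. The part of that signal in the result was not tested.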

How the results depend on the processing

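No member passed under the 75th percentile scaling, and none did under 10 of the 12 alternative settings. With normexp background correction Ddit4 passed at SEMA3E 2 h against control (2.14, limma, adjusted p = 0.0486). It was 1 of 34 members, beside 3437 of all 18073 genes tested, where 0 genes passed under the 75th percentile scaling. In the deposited table Dnajb11 passed at 2 h (4.23) and between SEMA3E 8 h and 2 h (-4.26), 1 member each, where its 2 tested scanner probes gave 0.35 and -1.09 at 2 h. The cause was not tested here or for the other changes below. Genes called at SEMA3E 2 h against control were 18 with scaling by the median of all probes and 18 in the deposited table. At SEMA3E 8 h against control, where 1 gene was called, there were 0 with normexp, quantile, median scaling, no filter on dim probes, an intensity trend or only the arrays compared, 2 when a gene's probes were averaged and 14 in the deposited table. In cytochalasin D against control they were 2 with median scaling and 9 in the deposited table. Between cytochalasin D and SEMA3E 8 h, where 1 was called, they were 0 with quantile, the 75th percentile of all probes, no filter, outliers kept or only the arrays compared, 7 with median scaling and 12 in the deposited table. Between SEMA3E 8 h and 2 h they were 36 with median scaling and 21 in the deposited table. With the wider lists the gap of ATF4 targets over chaperones was 1.1 at SEMA3E 8 h against control and -0.61 between cytochalasin D and SEMA3E 8 h. Median scaling moved the median of all genes from 0.06, 0.12 and 0.03 to -0.53, -1.04 and -0.15 in the 3 comparisons with control, and from -0.13 to 0.85 between cytochalasin D and SEMA3E 8 h, so the sign turns under it follow a shift of all genes. Of 57 gene and comparison pairs followed through the settings, 13 turned sign with median scaling, 6 with quantile and 6 in the deposited table. With normexp 5 did, with the 75th percentile of all probes 3 and with the mean of probes 2. Only some are given here. Signs turned for Atf4 (-0.080 with median scaling and -0.080 in the deposited table) and Hspa5 (-0.22 with median scaling) at SEMA3E 2 h. They also turned for Slc7a11 at SEMA3E 8 h against control (-0.076 with median scaling) and Ern1 between cytochalasin D and SEMA3E 8 h (0.35 with median scaling). Between SEMA3E 8 h and 2 h they turned for Atf4 (0.10 with quantile, 0.43 with the mean of probes, 0.51 in the deposited table) and, with normexp, for Ern1 (-0.35), Hyou1 (-0.17) and Slc7a11 (-0.17).

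The labels do not say whether the replicate numbers pair the cultures. Deviations of same-numbered arrays correlated from -0.15 to 0.14, which cannot settle it with 2 arrays in a group. With the replicate block 7 genes were called at SEMA3E 8 h against control, 0 between cytochalasin D and SEMA3E 8 h, and 0 members anywhere. Leaving out 1 array at a time gave 0 to 533 genes and 0 to 4 members at SEMA3E 2 h against control, 0 to 2834 and 0 to 1 at SEMA3E 8 h, 0 to 1 gene after cytochalasin D, 0 to 2534 and 0 to 1 between cytochalasin D and SEMA3E 8 h, and 0 to 1336 and 0 to 4 between SEMA3E 8 h and 2 h. The 4 were Canx, Creld2, Dnajc3 and Manf without SEMA3E 2 h replicate 1, and the 1 was Vldlr, which passed the detection filter only through SEMA3E 8 h replicate 2 once that array stood alone, so its call is not read as a difference. The gap of amino acid over chaperone medians then ran from -0.15 to 0.51 at 2 h, -0.28 to 0.67 at 8 h and -0.38 to 0.42 between them. Of the 57 gene and comparison pairs, 20 turned sign in at least 1 of these fits, and only some are given here. Differences between SEMA3E 8 h and 2 h ran from -0.019 to 2.55 for Canx, -0.11 to 2.14 for Chac1, -0.092 to 1.95 for Ddit3 and -0.17 to 2.65 for Slc7a11. Those of SEMA3E 8 h from control ran from -1.05 to 4.56 for Hyou1, -0.0026 to 2.94 for Ppp1r15a and -0.32 to 2.50 for Slc7a11. Those between cytochalasin D and SEMA3E 8 h ran from -2.67 to 0.27 for Ppp1r15a and -3.72 to 0.28 for Trib3.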
